A study of Mus musculus with 6 samples.

Results

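The genes examined here encode the machinery that builds melanosomes, loads them with cargo and moves them through the melanocyte. The set was chosen by gene symbol, as the rows of the deposited table named for components of the BLOC-1, BLOC-2, BLOC-3, AP-3 and HOPS complexes and of the RAB27A-MLPH-MYO5A transport complex, with a few genes that act beside them. All 32 symbols matched 1 row each of the 54532 genes in the table. The RNA came from the ear skin of mice aged 3 months, in 6 libraries. The Ufl1 cKO group held 3 libraries of genotype Ufl1f/f KRT14Cre/+, in which both Ufl1 alleles are floxed and a Cre is driven by the keratin 14 promoter of basal keratinocytes and their descendants. The control group held 3 libraries of genotype Ufl1f/+ or Ufl1f/f, for which the labels name no Cre, so effects of the Cre transgene and of the loss of Ufl1 cannot be told apart. Ufl1 encodes the E3 ligase of ufmylation, a modification of proteins by UFM1.

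Melanosomes are lysosome-related organelles. Enzymes and channels made in the secretory pathway reach them from endosomes through sorting complexes that most cells also use for lysosomes: the coat adaptor AP-3, the complexes BLOC-1, BLOC-2 and BLOC-3, and the small GTPases RAB32 and RAB38. Mature melanosomes are then tied to actin by RAB27A, which recruits melanophilin (MLPH) and through it the motor myosin Va (MYO5A). Loss of some single components dilutes coat colour in mice, and loss of some in people causes Hermansky-Pudlak, Chediak-Higashi or Griscelli syndromes. Pigment enzyme genes are transcribed mainly in melanocytes, whereas most genes of this machinery are transcribed in nearly all cells, and Cre under the keratin 14 promoter is not expected in melanocytes.

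Whole ear skin was sequenced, and a value from it mixes all cell types, so fewer cells of a type and less RNA per cell cannot be told apart. Total counts ranged from 17256339 to 20776539 per library. The mitochondrial share of counts was 4.59% in control 1 and lay between 2.28% and 2.97% elsewhere. Ufl1 itself was at 34.8, 35.6 and 38.7 CPM in cKO 1 to 3, against 57.8, 46.9 and 46.0 CPM in controls 1 to 3 (CPM, counts scaled to a common library size by TMM). Every cKO library was thus below every control. The log2 fold change was -0.47 (SE 0.14, 95% interval -0.79 to -0.15), with edgeR's unadjusted p at 0.00985 and adjusted p at 0.778. Keratinocyte genes were abundant, with Krt14 at 3171 ± 441 CPM in cKO and 2538 ± 1784 CPM in control ears (mean ± SD, n = 3 each). Krt5 was at 1842 ± 312 CPM in cKO and 2010 ± 1418 CPM in control ears. Whether the libraries are from different animals is not stated in the labels, and the tests below measure only how far these samples spread.

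The machinery as a whole stayed close to its control level in the cKO ears while the 11 genes of the pigment list, among them the melanin enzymes, had a median log2 fold change of 2.02. Of those 11, edgeR called 1 and DESeq2 called 9, all of them higher in the cKO. Of the 32 genes, 31 had enough reads to be tested, and 0 of the 31 passed edgeR's quasi-likelihood test at an adjusted p under 0.05, where 0.0173% of all 17318 genes tested passed (0.0115% higher and 0.00577% lower in the cKO). DESeq2 likewise called 0 of the 31, against 0.526% of all genes. At an unadjusted p under 0.05 the count was also 0 of 31 in edgeR (5.33% of all genes, 3.38% higher and 1.95% lower), 0 in DESeq2 (5.85%) and 0 in limma-voom (5.14%). Leaving out control 1 brought the edgeR count to 4 of the same 31 unadjusted (Ap3m1 and Ap3s1 higher, Rab27a and Dtnbp1 lower), against 10.5% of all genes in that fit. Leaving out control 2 brought it to 1 of 31 (Bloc1s2 higher), against 6.9% of all genes. In limma-voom with quality weights 2 of 31 were under 0.05 unadjusted (Ap3m1 higher and Rab27a lower), against 15.9% of all genes. In these 3 fits 0 of the 31 passed after adjustment. The median log2 fold change (cKO over control) was 0.04 over the 31 genes and -0.01 over all genes tested. For 19 of the 31 the change was smaller in size than 0.1, which held for 34.7% of all genes. That share was not matched to the set in expression level, and 30 of the 32 genes had a mean of at least 1 FPKM. A positive sign was found for 20 of the 31, against 47.8% of all genes, and this number was 16 under upper-quartile scaling and 17 with total counts only.

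The intervals give the size of change that these libraries can bound. For 30 of the 31 genes the 95% interval of the log2 fold change lay between -1 and 1, so that a doubling or a halving fell outside it, against 69.9% of all genes. The exception was Mlph. The highest upper bound was 1.30, also that of Mlph, and the other intervals ended at or below 0.73. Tyrp1, Tyr and Dct, the enzymes of melanin synthesis, had log2 fold changes of 2.02 (SE 0.18, 95% interval 1.61 to 2.42), 2.59 (SE 0.28, 95% interval 1.94 to 3.24) and 2.07 (SE 0.26, 95% interval 1.46 to 2.68) in the same fit, so each of their lower bounds was above each upper bound of the machinery. The median half-width of the intervals was 0.37 in the machinery and 0.52 over all genes. The shares of 30 of 31 and 69.9% thus compare genes measured with unlike precision.

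**Figure D1:**
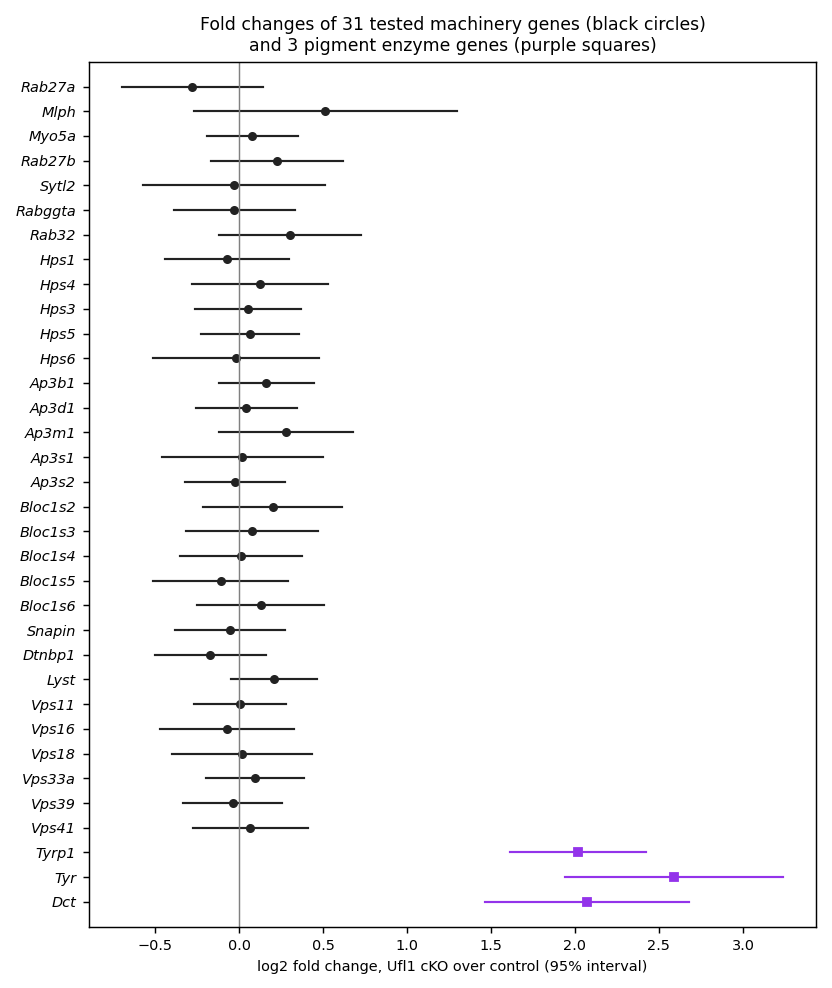
Log2 fold changes, Ufl1 cKO over control, with 95% intervals on the horizontal axis, for the 31 tested machinery genes (black circles) and the pigment enzyme genes Tyrp1, Tyr and Dct (purple squares). Every machinery interval includes 0, and those of the 3 pigment enzymes start at 1.46 or above.

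Summed over the 32 genes, the machinery was at 1471, 1443 and 1497 CPM in cKO 1 to 3, against 1421, 1391 and 1425 CPM in controls 1 to 3. These sums do not overlap, but the difference is small: the cKO mean was 1.04 times the control mean. As a share of the raw counts the groups overlapped, with 0.145%, 0.143% and 0.150% in cKO 1 to 3 and 0.138%, 0.143% and 0.145% in controls 1 to 3. The 11 pigment genes summed to 331, 365 and 438 CPM in cKO 1 to 3, against 222, 122 and 199 CPM in controls 1 to 3, or 2.09 times the control mean. A large part of this sum is Gpnmb, which macrophages also express, at 156 ± 8.63 CPM in cKO and 125 ± 52.2 CPM in control ears (SD, n = 3 each).

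**Figure D2:**
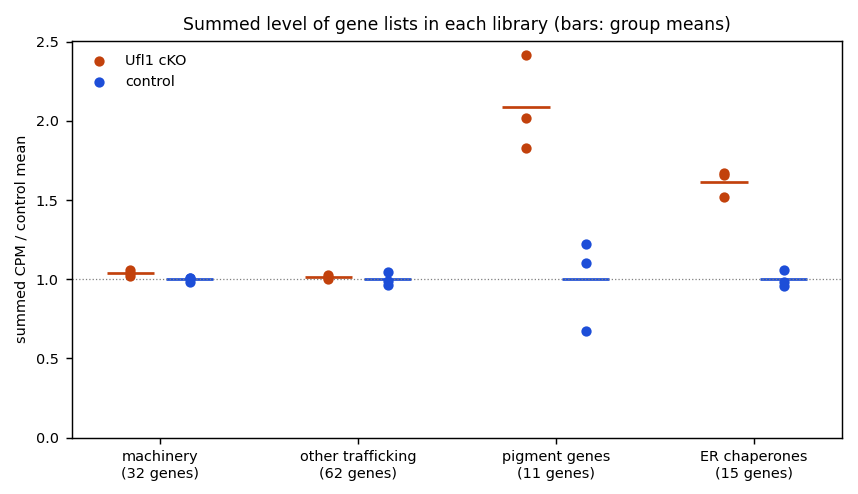
Summed TMM-scaled CPM of each gene list in each library, divided by the mean of the 3 controls (vertical axis from 0), for Ufl1 cKO (left, orange) and control (right, blue). Points are libraries and bars are group means. The machinery sums lie between 0.98 and 1.06 in all libraries, whereas the pigment sums reach 1.83 to 2.42 in the cKO.

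The RAB27A complex was examined first because it carries the finished melanosome. Rab27a (ENSMUSG00000032202, chromosome 9, 73044854 to 73097629, mm10), the GTPase on the melanosome membrane, was at 23.5, 22.4 and 25.8 CPM in cKO 1 to 3, against 23.0, 35.3 and 28.6 CPM in controls 1 to 3. The cKO values were close together and the controls spread upwards, with control 2 highest and control 1 inside the cKO range. The log2 fold change was -0.28 (SE 0.18, 95% interval -0.70 to 0.14) (edgeR adjusted p 0.981). It was -0.11 without control 2 and -0.42 without control 1, where the unadjusted p was 0.0270 and the adjusted p 0.442 in edgeR. Rab27a had the most negative value of the 31 genes, all of whose intervals include 0.

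Mlph (ENSMUSG00000026303, chromosome 1, 90915085 to 90951142), the linker between RAB27A and the motor, was at 8.07, 6.37 and 6.12 CPM in cKO 1 to 3, against 5.54, 2.63 and 6.23 CPM in controls 1 to 3. Control 2 had the lowest value and the other 2 controls lay near the cKO libraries, which overlapped them. Its log2 fold change, 0.51 (SE 0.34, 95% interval -0.27 to 1.30), had the largest size in the set, with edgeR's unadjusted p at 0.168 and adjusted p at 0.981, and was 0.22 without control 2 and 0.75 without control 3. Mlph was also among the least expressed members, at 1.27 ± 0.192 FPKM in cKO and 0.89 ± 0.359 FPKM in control ears (SD, n = 3 each), and its interval was the widest.

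Myo5a (ENSMUSG00000034593, chromosome 9, 75071015 to 75223688), the actin motor, was at 153, 144 and 143 CPM in cKO 1 to 3, against 144, 129.7 and 143 CPM in controls 1 to 3. All libraries but control 2 lay within a narrow band, and the log2 fold change was 0.08 (SE 0.12, 95% interval -0.19 to 0.35). Per length Myo5a was at 9.85 ± 0.326 FPKM in cKO and 9.32 ± 0.596 FPKM in control ears, several times the level of Mlph. The Mlph to Myo5a ratio of FPKM was 0.129 ± 0.0149 in cKO and 0.0942 ± 0.0339 in control ears (SD, n = 3 each), a difference with p = 0.2 in a two-sided exact permutation test, in which 3 libraries against 3 cannot go below 0.1.

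Rab27b, the paralog of Rab27a, which is also used in secretory cells, was at 72.0, 47.7 and 61.4 CPM in cKO 1 to 3, against 56.6, 50.2 and 48.2 CPM in controls 1 to 3. cKO 1 was highest and cKO 2 lowest of all 6, and the log2 fold change was 0.22 (SE 0.17, 95% interval -0.17 to 0.62) (edgeR adjusted p 0.997). Without cKO 1 it was 0.08. The paralogs thus had opposite signs, Rab27a negative and Rab27b positive. The Rab27a to Rab27b ratio of FPKM was 0.900, 1.29 and 1.16 in cKO 1 to 3, against 1.12, 1.94 and 1.64 in controls 1 to 3. Those ranges overlap through control 1, and the exact permutation test of the log ratio gave p = 0.3.

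Sytl2, a synaptotagmin-like effector that binds RAB27 and membranes, was at 11.2, 9.15 and 11.7 CPM in cKO 1 to 3, against 13.9, 10.5 and 8.40 CPM in controls 1 to 3, with a log2 fold change of -0.03 (SE 0.23, 95% interval -0.57 to 0.51). Its sign depended on the library and the weights: it was 0.17 without control 1, -0.19 without control 3 and 0.26 in limma-voom with quality weights. Rabggta, the catalytic subunit of the enzyme that attaches lipid anchors to Rab proteins, was at 33.0 ± 1.61 CPM in cKO and 33.6 ± 5.85 CPM in control ears (SD, n = 3 each), which gave a log2 fold change of -0.03 (SE 0.16). Rab32 (ENSMUSG00000019832, chromosome 10, 10545002 to 10558265), which directs cargo to melanosomes, was at 31.9, 26.8 and 39.1 CPM in cKO 1 to 3, against 30.7, 23.4 and 25.1 CPM in controls 1 to 3. cKO 3 was highest and controls 2 and 3 were lowest, while cKO 1 and cKO 2 lay on either side of control 1. The log2 fold change of 0.30 (SE 0.18, 95% interval -0.12 to 0.73) had an unadjusted p of 0.136 (adjusted p 0.981 in edgeR), and was 0.15 without cKO 3.

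**Figure D3:**
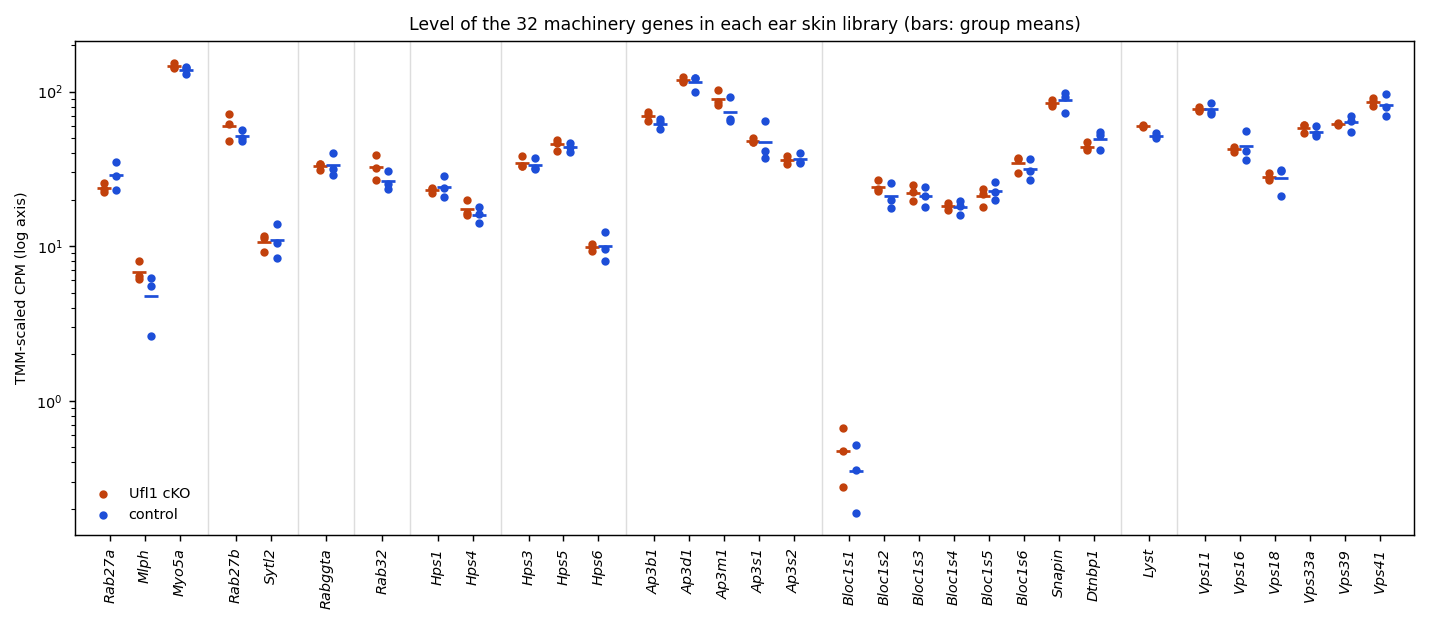
TMM-scaled CPM (log axis) of each of the 32 genes in the 3 Ufl1 cKO (left, orange) and 3 control (right, blue) libraries, with bars at the group means and grey lines between complexes. The groups overlap for every tested gene except Lyst, and Bloc1s1 lies below 1 CPM in all libraries.

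BLOC-3, a dimer of the HPS1 and HPS4 proteins, activates RAB32 and RAB38. Hps1 was at 23.1 ± 0.951 CPM in cKO and 24.3 ± 3.79 CPM in control ears and Hps4 at 17.5 ± 2.18 CPM in cKO and 16.0 ± 1.88 CPM in control ears (SD, n = 3 each), with log2 fold changes of -0.07 (SE 0.16) and 0.12 (SE 0.17). Both subunits were lowest in control 1. BLOC-2, made of the HPS3, HPS5 and HPS6 proteins, directs cargo carriers from endosomes to melanosomes. Hps3 was at 34.8 ± 3.12 CPM in cKO and 33.5 ± 3.01 CPM in control ears, Hps5 at 45.6 ± 3.66 CPM in cKO and 43.6 ± 2.91 CPM in control ears and Hps6 at 9.87 ± 0.523 CPM in cKO and 9.97 ± 2.20 CPM in control ears. Their log2 fold changes were 0.05 (SE 0.14), 0.07 (SE 0.13) and -0.02 (SE 0.21), so all 3 lay within 0.1 of 0.

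AP-3 is a coat adaptor that picks tyrosinase and other cargo at endosomes. Its delta subunit Ap3d1, which the coat-colour mutant mocha lacks, was at 118 ± 4.91 CPM in cKO and 115 ± 13.5 CPM in control ears, and its beta subunit Ap3b1, mutated in the pearl mouse, at 69.5 ± 4.48 CPM in cKO and 62.2 ± 4.70 CPM in control ears (SD, n = 3 each). The log2 fold changes were 0.04 (SE 0.13) and 0.16 (SE 0.12). The mu subunit Ap3m1 (ENSMUSG00000021824, chromosome 14, 21031442 to 21052508), which contacts the sorting signals, was at 85.5, 82.4 and 102 CPM in cKO 1 to 3, against 91.7, 64.9 and 66.2 CPM in controls 1 to 3. Controls 2 and 3 were below all cKO libraries and control 1 was between cKO 1 and cKO 3.

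For Ap3m1 the log2 fold change was 0.28 (SE 0.17, 95% interval -0.12 to 0.68), with edgeR's unadjusted p at 0.144 and adjusted p at 0.981. It was 0.45 without control 1, with edgeR's unadjusted p at 0.0119 and adjusted p at 0.426, and 0.18 without cKO 3. Of the 7015 exonic bases of Ap3m1, 2090 also lie in exons of Vcl, which encodes vinculin, on the opposite strand. Vcl was at 57.8, 51.1 and 39.6 CPM in cKO 1 to 3, against 32.6, 31.6 and 51.5 CPM in controls 1 to 3, with a log2 fold change of 0.36 (SE 0.23). The labels name a kit without a strand step and no source here gives the strand setting of the counting, so reads from the shared bases cannot be assigned with certainty.

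The small sigma subunit of AP-3 is encoded by the paralogs Ap3s1 and Ap3s2. Per length Ap3s1 was at 23.8 ± 0.819 FPKM in cKO and 23.5 ± 7.29 FPKM in control ears and Ap3s2 at 6.09 ± 0.374 FPKM in cKO and 6.17 ± 0.467 FPKM in control ears (SD, n = 3 each), so in every library Ap3s1 was the more abundant transcript, by a ratio between 2.71 (control 2) and 5.36 (control 1). Ap3s1 was at 47.6, 50.1 and 46.9 CPM in cKO 1 to 3, against 64.2, 37.1 and 41.4 CPM in controls 1 to 3. The cKO libraries lay between the controls, near one another, and the log2 fold change was 0.02 (SE 0.21, 95% interval -0.46 to 0.50), with 0.29 without control 1. Ap3s1 and Ap3m1 have processed pseudogenes, and Ap3s1-ps1 held 25 to 53 counts per library, so the split of reads between copies is uncertain. Ap3s2 had a log2 fold change of -0.02 (SE 0.13).

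BLOC-1 is an assembly of 8 small proteins that shapes the tubules leading from endosomes to melanosomes, and all 8 genes were in the set. Snapin (ENSMUSG00000001018, chromosome 3, 90488026 to 90491033), the best expressed member per length at 36.8 ± 1.75 FPKM in cKO and 38.0 ± 5.91 FPKM in control ears, was at 81.2, 88.9 and 83.7 CPM in cKO 1 to 3, against 98.1, 73.0 and 92.0 CPM in controls 1 to 3. The controls spanned the cKO values, and the log2 fold change was -0.05 (SE 0.14, 95% interval -0.38 to 0.28). It shares 354 of 2290 exonic bases with Ilf2 on the opposite strand. Dtnbp1 (dysbindin), lost in the sandy mouse, was at 43.3, 46.9 and 42.2 CPM in cKO 1 to 3, against 41.8, 55.1 and 52.1 CPM in controls 1 to 3. Controls 2 and 3 were above every cKO library and control 1 below them. Bloc1s6 (pallidin), lost in the pallid mouse, was at 34.4 ± 4.10 CPM in cKO and 31.5 ± 4.86 CPM in control ears (SD, n = 3 each). The log2 fold changes were -0.17 (SE 0.14) and 0.13 (SE 0.16). Dtnbp1 was at -0.29 without control 1, with edgeR's unadjusted p at 0.0388 and adjusted p at 0.459.

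The other small BLOC-1 subunits gave log2 fold changes of 0.20 (SE 0.18) for Bloc1s2, 0.08 (SE 0.17) for Bloc1s3, 0.01 (SE 0.16) for Bloc1s4 (cappuccino) and -0.11 (SE 0.17) for Bloc1s5 (muted). Bloc1s2 reached 0.37 without control 2, with edgeR's unadjusted p at 0.0496 and adjusted p at 0.723. Bloc1s1 was the exception in level. It was counted 5, 12 and 9 times in cKO 1 to 3, against 6, 10 and 4 times in controls 1 to 3, or 0.364 ± 0.15 FPKM in cKO and 0.272 ± 0.124 FPKM in control ears, and was not tested in the reported fit because these counts were below the filter. Some alternative edgeR fits did test it, with an unadjusted p of 0.316 or above. The log2 fold change was 0.41 with no filter beyond 1 count, 0.68 without cKO 1 and 0.42 without control 1. Its level per length was far under that of its partner subunits. Of its 1288 exonic bases, 720 also lie in exons of Rdh5 on the same strand, which leaves 568. Rdh5 was at 3.56, 3.82 and 4.60 CPM in cKO 1 to 3, against 5.54, 6.90 and 3.68 CPM in controls 1 to 3. How shared bases were counted was not tested, and the value may not give the abundance of the Bloc1s1 transcript.

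Lyst (ENSMUSG00000019726, chromosome 13, 13590397 to 13778803) encodes the large protein lost in Chediak-Higashi syndrome and in the beige mouse, in which melanosomes and lysosomes grow too large. It was at 60.8, 60.2 and 59.0 CPM in cKO 1 to 3, against 49.9, 51.8 and 54.1 CPM in controls 1 to 3. All cKO libraries were above all controls, and no other tested member had groups that did not overlap: 1 of 31, against 10.5% of all genes, with 5.73% higher and 4.8% lower in the cKO. The log2 fold change was 0.21 (SE 0.11, 95% interval -0.05 to 0.46). The unadjusted p of 0.0997 was the smallest of the set, the adjusted p was 0.97 in edgeR, and the exact permutation test gave p = 0.1, the smallest it allows. The change stayed between 0.17 and 0.24 when each library was left out in turn. A share of 1 in 31 is below the background share, so it does not set the list apart.

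HOPS is a tether that fuses late endosomes with lysosomes and related organelles. Its 6 genes had log2 fold changes between -0.07 and 0.09. The shared core subunits Vps11, Vps16, Vps18 and Vps33a were at 0.00, -0.07, 0.02 and 0.09, and the HOPS-specific subunits Vps39 and Vps41 at -0.04 and 0.07, with SEs from 0.12 to 0.18. Vps33a, altered in the buff mouse, was at 58.6 ± 4.01 CPM in cKO and 54.9 ± 4.55 CPM in control ears (SD, n = 3 each), with 2 of 3 cKO libraries above every control. Vps11, the most abundant HOPS gene per length, was at 15.5 ± 0.56 FPKM in cKO and 15.4 ± 1.36 FPKM in control ears. Vps16 was at 42.6, 44.0 and 40.8 CPM in cKO 1 to 3, against 36.4, 56.1 and 41.5 CPM in controls 1 to 3, and the spread of its controls, with control 2 highest and control 1 lowest, took in the 3 cKO values.

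Levels per length were compared through the authors' FPKM. The order ran from Snapin (37.4 FPKM over the 6 libraries), Bloc1s2 (25.7) and Ap3s1 (23.7) to Lyst (3.19), Mlph (1.08), Sytl2 (0.771) and Bloc1s1 (0.318), with a median of 7.80. For 27 of the 31 neighbouring pairs in this order the libraries overlapped. Gaps stood between Snapin and Bloc1s2, between Ap3s1 and Vps11, between Lyst and Mlph and between Sytl2 and Bloc1s1. The transport complex was uneven, with Myo5a at 9.58, Rab27a at 6.77 and Mlph at 1.08 FPKM, whereas BLOC-3 was even, with Hps4 at 4.22 and Hps1 at 4.02 FPKM. FPKM divide by all annotated exonic bases of a gene, so a gene that uses a short isoform is given too low a level.

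The controls spread more widely than the cKO libraries. Their SD exceeded the cKO SD for 26 of the 31 tested genes, against 70.6% of all genes. Control 1 was the lowest library for 14 of the 31 and control 2 for 10, while these were the lowest for 25.5% and 26.9% of all genes. Members of 1 complex did not move together in control 2: it was lowest for Ap3m1, Ap3s1 and Ap3b1 and highest for Ap3s2, and lowest for Snapin and Bloc1s6 and highest for Bloc1s4 and Dtnbp1.

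**Figure D4:**
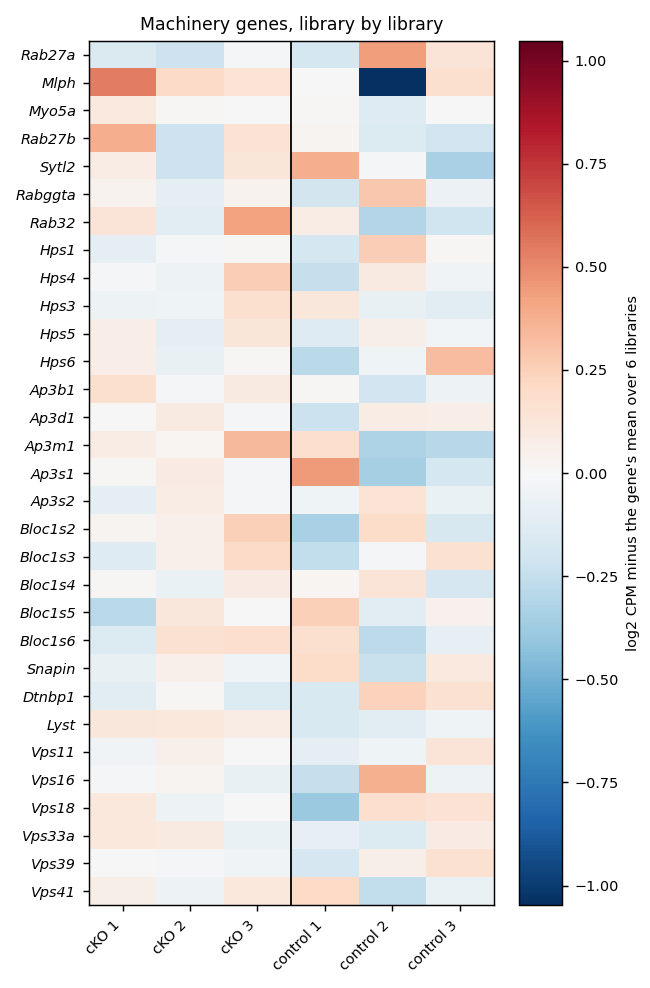
Log2 CPM of each of the 31 tested genes minus its own mean over the 6 libraries (colour scale), with the 3 Ufl1 cKO libraries left of the line and the 3 controls right of it. The strongest colours are those of Mlph, lowest in control 2 and highest in cKO 1.

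Markers of other cell types differed between the same libraries. Basal keratinocyte markers (7 genes) summed to 6275, 5400 and 7201 CPM in cKO 1 to 3, against 3349, 11570 and 5225 CPM in controls 1 to 3, with control 2 highest and control 1 lowest. Of these 7 genes only Krt14 had a positive log2 fold change, 0.32. The other 6 were negative, down to -1.61, and the median of the 7 was -0.20. DESeq2 called 1 of the 7, against 0.526% of all genes, and edgeR 0. Macrophage markers (6 genes) summed to 1423, 1134 and 1387 CPM in cKO 1 to 3, against 1527, 638 and 1193 CPM in controls 1 to 3, and mast cell markers (8 genes) to 483, 504 and 524 CPM in cKO 1 to 3, against 566, 299.5 and 379 CPM in controls 1 to 3, both lowest in control 2. Sebocyte markers (9 genes) summed to 7455, 10966 and 11110 CPM in cKO 1 to 3, against 12467, 15741 and 13863 CPM in controls 1 to 3, and Schwann cell markers (6 genes) to 816, 965 and 1087 CPM in cKO 1 to 3, against 1202, 1536 and 1196 CPM in controls 1 to 3. For both lists every cKO sum was below every control sum. By gene, 4 of the 6 Schwann cell markers were lower at an unadjusted p under 0.05 in edgeR, against 1.95% of all genes, with 0 after adjustment. Most of the sebocyte sum is Scd1, at 7732 ± 1868 CPM in cKO and 11608 ± 1051 CPM in control ears (SD, n = 3 each). At the same unadjusted threshold in edgeR 2 of the 9 sebocyte markers were higher and 1 lower, against 3.38% and 1.95% of all genes. After adjustment edgeR called 0 of them and DESeq2 called 2, against 0.0173% and 0.526% of all genes. By sign 7 of the 9 were negative, down to -3.66, and 2 positive, with a median log2 fold change of -0.25. Neutrophils, T cells, NK cells and platelets also use RAB27, AP-3 and LYST for their granules. Neutrophil markers (8 genes, 3 of them tested) summed to 64.5 CPM in cKO 1 and to 4.74 to 14.9 CPM elsewhere. Most of the cKO 1 sum was Csf3r, at 41.6 CPM, and Cxcr2, at 19.9 CPM. Of the 3 tested neutrophil markers 2 had a positive log2 fold change, up to 2.31, and 1 a negative one, -3.55. T and NK cell markers (9 genes) summed to 60.3 CPM in cKO 3 and to 17.9 to 31.9 CPM elsewhere. Among the RAB27, AP-3 and LYST genes of the set, Rab27b and Ap3b1 were highest in cKO 1, at 72.0 and 73.6 CPM. Ap3m1 was highest in cKO 3, at 102 CPM. Rab27a and Ap3s2 were instead highest in control 2, Ap3s1 in control 1 and Ap3d1 in cKO 2. Lyst was at 59.0 to 60.8 CPM in the 3 cKO libraries, with cKO 1 highest. Melanocyte lineage genes (5 genes) summed to 121, 123 and 129 CPM in cKO 1 to 3, against 128, 94.3 and 113 CPM in controls 1 to 3. Kit and Sox10 had the highest levels of these 5, with log2 fold changes of opposite sign, 0.39 and -0.32. Both 95% intervals include 0. Of the 5 genes 4 were positive, and Sox10 was the 1 negative. The part of these cell types in the values of the machinery was not tested.

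Promoter windows were examined for sequence the genes share. RefSeq windows (GRCm38.p6, 250 bases before to 50 after a start site) were at hand for 25 of the 32 genes, and 6 motifs were searched on both strands, after the expression values were known. The palindromic E-box CACGTG, a motif bound by the MITF and TFE family of melanocyte and lysosome regulators and by other factors, occurred in 9 of the 25 genes (36%), against 8.09% of the 27025 genes with a window. Its extended form TCACGTGA, which contains it, occurred in 5 (20%), against 1.12% of all. Within 60 bases before to 6 after the start, 7 of 25 genes (28%) held CACGTG, against 2.63% of all. CATGTG was in 4 of 25 (16%, against 15.9%), TCATGTG in 2 (8%, against 4.31%), GGAAGTG in 5 (20%, against 12.5%) and TGACG, which can overlap TCACGTGA, in 14 (56%, against 23.0%). The background was every gene with a window, not matched to the set in expression or base composition. Whether these excesses are particular to the machinery was not tested.

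The 7 genes with CACGTG close to the start are shown because this stretch recurs in subunits of different complexes. Each sequence is 30 bases, 5′ to 3′ on the strand of the gene, with CACGTG in capitals. Other start sites are annotated for some of these genes, so part of a window can be transcribed.
Vps16 (chr2:130424290-130424319, plus strand): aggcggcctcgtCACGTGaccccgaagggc
Vps33a (chr5:123573018-123573047, minus strand): ggatCACGTGaacgtcccgtCACGTGacgc
Hps3 (chr3:20035308-20035337, minus strand): ggtcgcagcgctCACGTGatccggagcagc
Bloc1s3 (chr7:19508361-19508390, minus strand): cataactcggctCACGTGacgctgcgagag
Bloc1s1 (chr10:128923518-128923547, minus strand): gcgtCACGTGatactgcgatCACGTGacgc
Hps1 (chr19:42779962-42779991, minus strand): atgtggctgagtCACGTGtcctacccggaa
Mlph (chr1:90915040-90915069, plus strand): tcaggagtagccCACGTGatctgagccgca

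The motif began 1 to 48 bases before the start in these genes, and Vps33a and Bloc1s1 each held it 2 times. Rab27a and Hps5 carried it farther away, 246 bases before a start of Rab27a and 227 and 192 bases before that of Hps5. For the 8 tested genes with CACGTG the log2 fold change had a median of 0.06 and ranged from -0.28 (Rab27a) to 0.51 (Mlph). The 16 without it had a median of 0.06 as well and ranged from -0.17 to 0.30. A match is a description of these letters and does not show binding.

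Other genes of melanosome trafficking gave the same picture. The list held 62 genes (further Rabs and their effectors, SNAREs, motors, AP-1 and BORC subunits, and relatives of HOPS), of which 60 were tested. Their median log2 fold change was 0.00, with 32 positive and 28 negative. At an unadjusted p under 0.05 the count was 0 of 60 in edgeR, against 5.33% of all genes. After adjustment over all genes 0 of 60 passed, against 0.0173% of all genes. The groups did not overlap for 3 that were higher and 1 that was lower in the cKO, and among all genes for 5.73% and 4.8%, so a count of 4 of 60 is no more than the background. Those with the smallest p were Atp7a, the copper pump that supplies tyrosinase, at 0.38 (SE 0.17), Myo7a, a motor that moves melanosomes in the retinal pigment epithelium, at 0.36 (SE 0.17), Unc13d, a RAB27 effector of cytotoxic granules, at 0.47 (SE 0.26), and Vamp7, a SNARE that fuses carriers with melanosomes, at 0.35 (SE 0.21). Atp7a was at 26.7, 23.6 and 21.9 CPM in cKO 1 to 3, against 20.1, 15.4 and 20.1 CPM in controls 1 to 3, with edgeR's unadjusted p at 0.0572 and adjusted p at 0.937.

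For the 32 genes the lowest unadjusted p in the authors' deposited table was 0.155 and the lowest adjusted p 0.9999, from a test that no source here names. The authors' deposited table rests on the same 6 libraries as the values above.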

How the data were processed

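Per the labels' protocols, TRIzol RNA was used for NEBNext Ultra libraries. The submitters' processing notes name HISAT2, HTSeq and mm10 with no version. Per the file headers, each gene has raw counts and FPKM for each library, both made by the authors. Beside these the authors deposited mean normalized counts (a signal value), log2 fold changes, p-values and adjusted p-values, from a test that no source here names.

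The 32 genes and all gene lists were chosen with earlier results of these data known. Of 54532 genes, 17318 passed filterByExpr and held 99.8% to 99.9% of each library's counts. They were compared with the edgeR 4.0.16 quasi-likelihood test (TMM scaling, robust estimates, R 4.3.3), with p-values adjusted by Benjamini-Hochberg across the 17318 genes and called under 0.05. An SE is the log2 fold change over the root of F, and 95% intervals use its t quantile. Levels are TMM-scaled CPM. Every one of the 32 genes could be named. Full values were given for the 6 with the smallest p, those with the highest and lowest FPKM, the RAB27A complex and its relatives, and from the second trafficking list the 4 with the smallest p. The libraries' values of Ap3s1, Dtnbp1 and Vps16 were added after they were seen. Gene overlaps came from GENCODE M21 (GRCm38), whose exon unions equal the deposited lengths of 29 of the 32 genes, and 11 of the 32 share exonic bases with another gene. Alternatives were RLE, upper-quartile and total-count scaling, 2 other filters, DESeq2 1.42.0, limma-voom (limma 3.58.1) with and without quality weights, limma-trend on log2(FPKM + 1) for genes with a mean of at least 0.5 FPKM, the replicate number as a block, and leaving out each library. The edgeR step was tested on simulated counts.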

Additional observations from a re-analysis of the deposited data

How the results depend on the processing

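The count of 0 called among the 31 tested genes held under every alternative. The number called over all genes was 3 as reported, 91 in DESeq2, 26 in limma-voom with quality weights, 25 with no filter beyond 1 count, 0 in limma-voom and limma-trend on log2(FPKM + 1) (891 and 819 at an unadjusted p under 0.05), and 0 to 4 when a library was left out (502 to 1876 at an unadjusted p under 0.05). A pairing by replicate number was not seen throughout: same-numbered libraries deviated with r = 0.22, -0.04 and -0.04. cKO 1 correlated best with control 1, while cKO 2 and cKO 3 correlated best with another number. Deviations from means of 3 libraries are tied to one another, so these values cannot exclude a pairing. The number of genes with groups that did not overlap, and that of positive signs, were followed across settings after seeing the data, and the first was 1 under every scaling. With the replicate block 12 genes were called, 0 of them in the set. The median of the machinery, 0.04, was 0.013 under upper-quartile scaling and 0.016 to 0.075 when a library was left out, and that of the other trafficking genes, 0.00, was -0.030 and -0.012 to 0.044, and -0.014 with total counts only.

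For 16 of the 31 genes the sign turned in 47 of 496 values, none larger in size than 0.26. In limma-voom with quality weights the log2 fold change was 0.26 for Sytl2 (0.0073 without weights), 0.045 for Rabggta, -0.022 for Ap3d1, 0.015 for Ap3s2, -0.11 for Bloc1s3, -0.10 for Vps11, 0.012 for Vps16 and -0.068 for Vps18. Vps11 was at -9.0e-05 in DESeq2, -0.00033 with no filter, -0.019 with total counts and -0.028 under upper-quartile scaling. Under these scalings Bloc1s4 was at -0.0087 and -0.020 and Vps18 at -0.011 and -0.015, and Ap3s1 was at -0.015 under upper-quartile scaling. Hps6 was at 0.0035 on log2(FPKM + 1) and 0.0027 with the replicate block. Leaving out 1 library gave ranges of -0.056 to 0.095 for Ap3d1, -0.13 to 0.29 for Ap3s1, -0.068 to 0.047 for Ap3s2, -0.031 to 0.18 for Bloc1s3, -0.067 to 0.085 for Bloc1s4, -0.18 to 0.050 for Hps1, -0.023 to 0.12 for Hps3, -0.15 to 0.17 for Hps6, -0.13 to 0.12 for Rabggta, -0.17 to 0.031 for Snapin, -0.19 to 0.17 for Sytl2, -0.049 to 0.075 for Vps11, -0.21 to 0.12 for Vps16, -0.15 to 0.11 for Vps18, -0.13 to 0.037 for Vps39 and -0.038 to 0.20 for Vps41. The cause was not tested. With 3 libraries a group, the 95% intervals had a median half-width of 0.37.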
